A study of Mus musculus with 10 samples.

Results

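Immediate early genes are switched on within minutes of a calcium signal or growth factor stimulus, without new protein synthesis, and their transcripts are short-lived. In neurons, calcium entry through channels such as TRPV1 reaches their promoters through calmodulin-dependent and MAP kinases, which act on factors such as CREB, a protein that binds cAMP response elements. Their products are mostly transcription factors, and Fos is widely used as a marker of recently active sensory neurons. They are also known to be induced by tissue dissociation. Genes of this class were followed here by name, Fos, Fosb, Junb, Egr1, Arc, Npas4, Ier2, Nr4a1 and Dusp1, which are 9 of 24421 gene rows of the count files, and all 9 were found. The question was how their transcripts differed between vagal sensory neurons that had been stimulated with capsaicin before collection and neurons that had not.

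The data were RNA sequencing counts from 10 pools of single mouse vagal neurons, with 2 pools in each of 5 groups. The nodose neurons (placode-derived) came from the caudal end and the jugular neurons (neural crest-derived) from the rostral end of the fused vagal ganglion, and all groups shared the same enzymatic dissociation and picking by pipette. In the capsaicin selection, neurons of wild-type C57BL/6 mice were loaded with the calcium dye Fura-2, exposed to α,β-methylene-ATP, a P2X receptor agonist, and then to capsaicin, the TRPV1 agonist. The capsaicin-selected nodose pools held cells that answered both agonists, and the capsaicin-selected jugular pools held cells that answered capsaicin but not α,β-methylene-ATP. In the Trpv1 selection, unstimulated neurons came from Trpv1-tdTomato mice, in which Trpv1-Cre recombines a ROSA26 CAG-tdTomato reporter, so that a cell that expressed Trpv1-Cre at any time, in development too, is red. This selection gave Trpv1-tdTomato-positive nodose, Trpv1-tdTomato-positive jugular and Trpv1-tdTomato-negative nodose pools from the same animals. Ages are not given in the sources used here, nor is the time from agonist to freezing or the mouse that gave each pool, so p-values measure only the spread between these pools. The capsaicin selection also differed from the Trpv1 selection in mouse strain, sequencing core, sequencing depth and, against the Trpv1-tdTomato-positive pools, in holding fewer cells per pool, so stimulation and these differences cannot be told apart.

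Totals were 148452506 to 167704327 counts in the 6 pools of the Trpv1 selection and 17666710 to 30810863 in the 4 capsaicin-selected pools. A count of 0 allows up to 3 counts, on the scale of CPM (counts scaled to library size) a limit of 0.0179 to 0.0202 for the deep libraries and of 0.0974 to 0.17 for the stimulated ones, for counting error only. The 8 sensory neuron markers were at 10 CPM or above in all 8 pools selected as capsaicin-sensitive or Trpv1-tdTomato-positive, and 7 of 8 were in the Trpv1-tdTomato-negative pools, Trpv1 being the exception. Their levels were not alike in the 2 selections, as given below. The 3 nodose markers summed to 699.2 to 2355 CPM in nodose pools and at most 1.128 in jugular pools. Levels below are CPM on 1 scale set by the trimmed mean of M-values (TMM) over the 10 pools, with the replicate 1 pool given before the replicate 2 pool.

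The promoters of 6 of the 9 genes (Fos, Fosb, Junb, Npas4, Nr4a1 and Dusp1) were matched in the RefSeq table for GRCm38.p6. Each held TGACG, the core of the cAMP response element, on one strand or the other within the 250 bases before the transcription start in that table. The same letters occurred in 17.8% of the 32851 mouse promoters of that length in the table. The whole palindrome TGACGTCA, which contains TGACG on both strands, was found in Dusp1 alone of the 6, against 1.55% of all promoters, and the TATA motif TATAAA in Fos alone, against 12.4%. The CArG box, bound by serum response factor, and TGANTCA, the AP-1 motif, were in none of the 6 windows, against 1.47% and 6.75% of all promoters. The 4 genes below are printed because their patterns over the pools differed most although each carries the same core. Fos was present in every pool, Junb was nearly absent from the capsaicin selection, Nr4a1 was found in unstimulated nodose pools, and Dusp1 differed between the capsaicin-selected ganglia. The windows are chr12:85473640-85473889 on the + strand (Fos), chr8:84978749-84978998 on the - strand (Junb), chr15:101266596-101266845 on the + strand (Nr4a1) and chr17:26508473-26508722 on the - strand (Dusp1). They run 5′ to 3′ in the sense of the gene, and capitals mark TGACG, its reverse complement CGTCA, TGACGTCA and TATAAA.
Fos: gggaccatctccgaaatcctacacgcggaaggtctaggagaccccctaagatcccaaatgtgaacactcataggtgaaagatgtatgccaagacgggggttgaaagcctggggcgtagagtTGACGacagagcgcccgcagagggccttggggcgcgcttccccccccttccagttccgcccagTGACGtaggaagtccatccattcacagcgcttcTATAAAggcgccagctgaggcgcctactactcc
Junb: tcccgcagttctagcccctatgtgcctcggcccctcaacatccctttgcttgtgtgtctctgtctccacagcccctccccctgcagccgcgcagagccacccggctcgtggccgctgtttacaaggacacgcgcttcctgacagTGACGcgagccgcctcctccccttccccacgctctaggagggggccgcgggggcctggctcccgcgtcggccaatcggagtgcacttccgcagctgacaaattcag
Nr4a1: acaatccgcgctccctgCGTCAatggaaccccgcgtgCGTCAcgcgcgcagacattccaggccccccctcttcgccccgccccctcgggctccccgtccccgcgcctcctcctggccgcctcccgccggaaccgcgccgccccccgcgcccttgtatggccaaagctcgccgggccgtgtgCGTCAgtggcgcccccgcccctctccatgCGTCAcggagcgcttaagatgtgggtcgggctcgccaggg
Dusp1: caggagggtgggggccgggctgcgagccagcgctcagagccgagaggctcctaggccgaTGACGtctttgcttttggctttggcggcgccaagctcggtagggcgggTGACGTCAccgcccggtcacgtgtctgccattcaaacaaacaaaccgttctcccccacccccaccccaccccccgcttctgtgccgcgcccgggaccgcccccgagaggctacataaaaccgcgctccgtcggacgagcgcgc

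In the Fos window the cores start 129 and 66 bases and the TATA motif 33 bases before the start site. Junb has 1 core, 106 bases before its start, Nr4a1 has 4 and Dusp1 has 3, of which 2 overlap within the palindrome 143 bases before its start. These starts are those of the RefSeq table. For Junb, Npas4 and Dusp1 they differ from the starts of the GENCODE transcripts whose positions are used elsewhere in this report. By those transcripts the Npas4 window lies wholly and the Dusp1 window partly inside the gene, and the Junb window ends short of its start. A match of letters is a description of the window and no measure of binding.

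Fos, which pairs with Jun proteins to form the AP-1 transcription factor, was the one gene of the 9 at 10 CPM or above in all 10 pools. It is a gene of 4 exons on chromosome 12 (85473890 to 85477273, + strand, mm10). The Trpv1-tdTomato-positive pools held 98.1 and 229.8 CPM (nodose) and 140.5 and 45.2 CPM (jugular), and the Trpv1-tdTomato-negative nodose pools 130.5 and 98.5 CPM. After capsaicin the nodose pools held 324.8 and 33.4 CPM, and the jugular pools 63.5 and 290.4 CPM. In each stimulated ganglion 1 pool lay above all 6 unstimulated pools, and the other lay below all 6 in nodose and below 5 of 6 in jugular. The highest and the lowest value of the 10 were thus replicates of 1 group. The mean over the 4 stimulated pools was 178 ± 151 CPM and over the 4 Trpv1-tdTomato-positive pools 128 ± 78.1 CPM (SD, n = 4 each).

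Fosb, the paralogue of Fos on chromosome 7, was present in 9 pools at 10 CPM or above. Its unstimulated levels ran from 14.7 to 76.2 CPM, with 76.2 and 34.5 CPM in Trpv1-tdTomato-positive nodose, 14.7 and 67.6 CPM in Trpv1-tdTomato-positive jugular and 46.4 and 30.2 CPM in Trpv1-tdTomato-negative nodose pools. After capsaicin the nodose pools held 34.83 and 47.97 CPM, within that range, and the jugular pools 16.5 and 0.218 CPM. The last value rests on 5 counts, in the pool in which Fos was at 290.4 CPM. Fos and Fosb did not follow each other over the pools, with a Pearson correlation of log2 levels of -0.482 over 10 pools that share selection and depth.

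Junb, a Jun-family partner in AP-1 with a gene of 1 exon on chromosome 8 (84976910 to 84978718, - strand), separated the selections most clearly. It was at 206 and 289 CPM in Trpv1-tdTomato-positive nodose, 206 and 231 CPM in Trpv1-tdTomato-positive jugular and 122 and 64.3 CPM in Trpv1-tdTomato-negative nodose pools. In the capsaicin selection the nodose pools held 0 and 5.25 CPM, and the jugular pools 1.84 and 0 CPM, with 98 and 44 counts in the pools where it was found. All 4 stimulated pools thus lay below all 6 unstimulated ones. Of 1462 genes at 60 CPM or above in all 6 unstimulated pools, a limit set after the value of Junb was seen, 1.92% were under 10 CPM in all 4 stimulated pools.

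Ier2, a short nuclear regulator with 1 exon on chromosome 8 (84661331 to 84662852, - strand), was at 14.5 and 15.7 CPM in Trpv1-tdTomato-positive nodose, 18.4 and 73.1 CPM in Trpv1-tdTomato-positive jugular and 20.4 and 54.6 CPM in Trpv1-tdTomato-negative nodose pools. It had 0 counts in 3 of the 4 stimulated pools and 12.1 CPM (278 counts) in the second jugular pool. That pool did not reach the lowest unstimulated value. Against the Trpv1-tdTomato-positive nodose mean, the capsaicin-selected nodose pools were at least 103-fold lower, with 3 counts allowed per library.

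Nr4a1, an orphan nuclear receptor on chromosome 15 (101266846 to 101274795, + strand), was confined to 4 of the 10 pools at 10 CPM or above, all unstimulated nodose. It was at 20.6 and 104 CPM in Trpv1-tdTomato-positive nodose pools and 13.4 and 34.7 CPM in Trpv1-tdTomato-negative nodose pools. In Trpv1-tdTomato-positive jugular pools it had 3 and 11 counts (0.0185 and 0.0639 CPM), and in the 4 stimulated pools it had none. The capsaicin-selected nodose pools were at least 427-fold below the Trpv1-tdTomato-positive nodose mean. Of 4011 genes at 10 CPM or above in the 4 unstimulated nodose pools, 4.01% had 0 counts in both capsaicin-selected nodose pools.

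Egr1, a zinc finger transcription factor on chromosome 18, was at 21.6 and 41.1 CPM in Trpv1-tdTomato-positive nodose, 76.7 and 41.6 CPM in Trpv1-tdTomato-positive jugular and 161 and 60.5 CPM in Trpv1-tdTomato-negative nodose pools. After capsaicin the nodose pools held 1.84 and 18.2 CPM, and the jugular pools 0.668 and 62.5 CPM. The first pool of each stimulated ganglion was thus far below the unstimulated range, the second nodose pool was just below it and the second jugular pool inside it.

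Dusp1, a phosphatase that inactivates MAP kinases and is itself induced by them, has 4 exons on chromosome 17 (26505590 to 26508519, - strand). The Trpv1-tdTomato-positive pools held 4.89 and 127.1 CPM (nodose) and 89.7 and 127.2 CPM (jugular), and the Trpv1-tdTomato-negative nodose pools 47.99 and 91.8 CPM. After capsaicin the nodose pools held 1.76 and 1.61 CPM (40 and 30 counts), and the jugular pools 33.1 and 99.5 CPM. The stimulated nodose pools were the 2 lowest of the 10, and the stimulated jugular pools lay inside the unstimulated range.

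Arc and Npas4, which are induced by synaptic activity in brain neurons, were practically absent. Arc, which acts at synapses, had 1 count in 1 Trpv1-tdTomato-positive jugular pool and none elsewhere. Npas4, a transcription factor, had none in any pool. Neither was tested in any comparison, and 33.5% of the 24421 gene rows had 0 counts in all 10 pools.

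**Figure D1:**
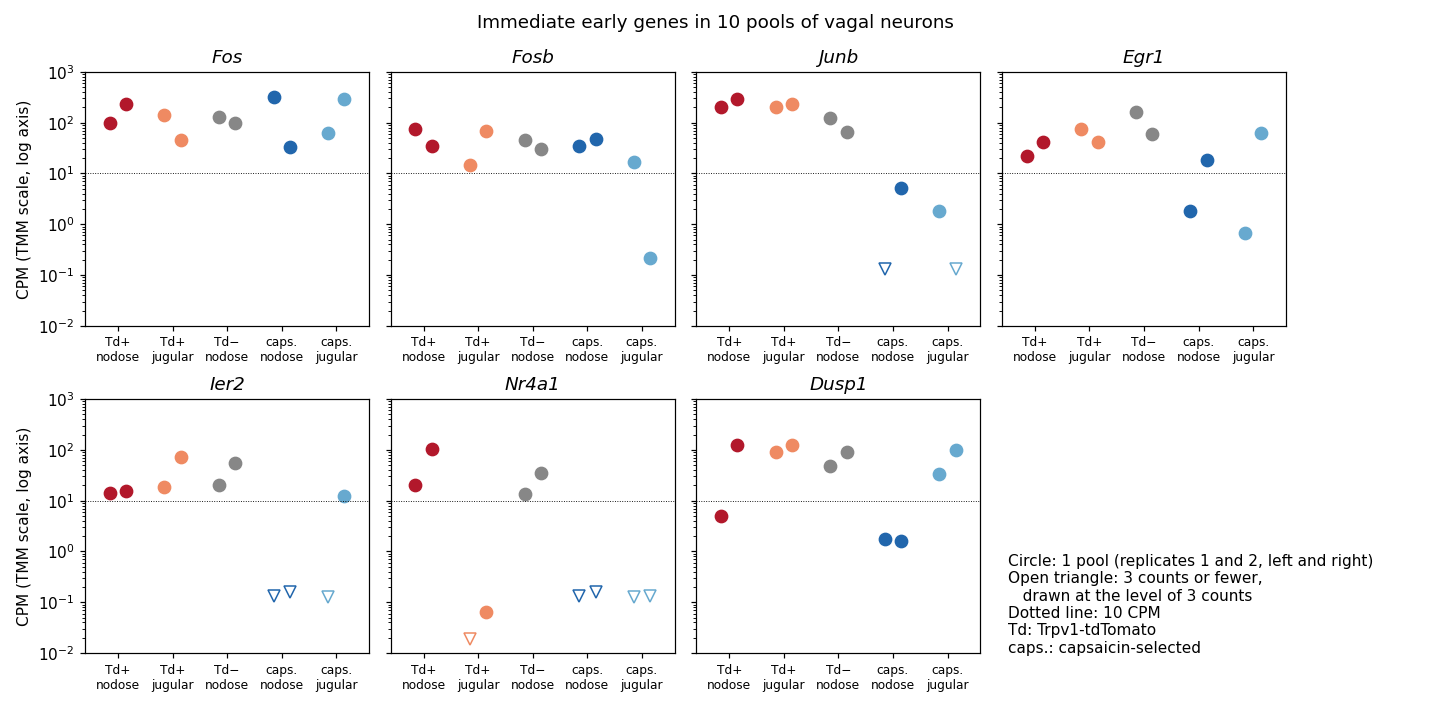
Level of 7 immediate early genes in each of the 10 pools, in CPM on a log axis, by group (Td, Trpv1-tdTomato; caps., capsaicin-selected), with open triangles at the level of 3 counts for pools with 3 counts or fewer. Fos is above 10 CPM (dotted line) in all 10 pools, whereas the 4 capsaicin-selected pools are at or below 5.25 CPM for Junb and at 0 counts for Nr4a1.

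Per kilobase of transcript the order of the genes differed between selections. This scale divides by length alone, so it does not remove the lower share of GC-rich transcripts in the capsaicin selection described below. In the Trpv1-tdTomato-positive pools the mean levels were 129 CPM per kb for Junb, 60.9 for Fos, 43.8 for Dusp1, 19.997 for Ier2, 12.8 for Fosb, 12.6 for Nr4a1 and 10.1 for Egr1. In the capsaicin selection Fos led with 84.5 CPM per kb, followed by Dusp1 with 17.1, Fosb with 6.58, Egr1 with 4.64, Ier2 with 1.99 and Junb with 0.98. The lowest Trpv1-tdTomato-positive pool of Junb lay above the highest of every other member. All other neighbours in both orders overlapped between pools, so their order is not separated from the spread.

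Counted per pool, 6 or 7 of the 9 genes reached 10 CPM in each unstimulated pool. In the stimulated pools 2 and 3 did so in nodose and 3 and 4 in jugular. Over all 24421 genes the share at 10 CPM or above was 26.17% to 29.93% in unstimulated and 17.11% to 26.49% in stimulated pools. Of the 9, 5 (Fos, Fosb, Junb, Egr1 and Ier2) were at 10 CPM in all 6 unstimulated pools, and 1 of these 5, Fos, was at 10 CPM in all 4 stimulated pools. Of 3439 genes at 10 CPM in all 6 unstimulated pools, 53.6% were, whereas 5.61% were under 10 CPM in all 4 stimulated pools, as Junb was, and 5.06% had 0 counts in at least 2 of them, as Junb and Ier2 had.

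The capsaicin selection was compared with the Trpv1-tdTomato-positive pools over both ganglia, with ganglion as a covariate, by the edgeR quasi-likelihood test with Benjamini-Hochberg adjustment over all genes tested. A gene was called at an adjusted p of 0.1 or less, a fold change of 2 or more and 10 CPM in both pools of a group compared. Of 11959 genes 5.85% were called, 212 higher and 488 lower after capsaicin (1.77% and 4.08%). One of the 7 immediate early genes tested was called, Junb, which was lower with a log2 fold change of -7.33 ± 1.85 (SE; 95% confidence interval -11.44 to -3.22; edgeR adjusted p = 0.0579). The median log2 fold change of all genes tested was -1.04, against which the members' values are to be read. None of the 9 was called higher. DESeq2 called 19% of genes and 3 of the 7 members, Junb, Ier2 and Nr4a1, all lower. Junb was no longer called with DESeq2 size factors (log2 fold change -6.69, edgeR adjusted p = 0.111), with which 288 genes were called higher and 271 lower, nor without the first or the second Trpv1-tdTomato-positive nodose pool or the first capsaicin-selected jugular pool (edgeR adjusted p = 0.11, 0.122 and 0.126).

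For Fos the estimated log2 fold change was 0.51 (95% confidence interval -1.44 to 2.45, edgeR adjusted p = 0.84). This interval takes in both a 2-fold lower and a 4-fold higher level, so neither is excluded by these pools. The values for the other tested genes were -1.44 for Fosb, -1.33 for Egr1, -6.62 for Ier2 and -3.00 for Dusp1, with edgeR adjusted p-values from 0.397 to 0.741. Nr4a1 had 0 counts in every stimulated pool, so no fitted fold is given for it (edgeR adjusted p = 0.141). In 3 of the 7 (Junb, Ier2 and Nr4a1) the 4 stimulated pools lay below all 6 unstimulated pools, as in 13.3% of all 11959 genes.

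The GC content of transcripts moved strongly with this contrast, which was examined after the values had been seen. Transcript sequences were found for 96.51% of the 7343 genes at 10 CPM in a group, and these were divided into 10 classes of equal size by GC content. The median log2 fold change was 0.46 in the class with the lowest GC content (up to 42% GC) and -3.50 in the class with the highest (above 58.08% GC), of which 18.05% were called lower. Junb, at 62.58% GC, and Ier2, at 60.91%, belong to that highest class. Of the 708 other genes in it, 19.49% had a log2 fold change as low as that of Junb and 24.58% as low as that of Ier2. Egr1 (57.31%), Nr4a1 (56.96%) and Fosb (55.98%) belong to the next class, with a median of -1.76. In that class 0.7062% of the other genes had a fitted value as low as that of Nr4a1, which had 0 counts in every stimulated pool, against 56.78% for Fosb and 59.46% for Egr1. Dusp1 (54.87%) differed from the median of its class by -1.67 (log2), where 29.32% were as low. Fos has the lowest GC content of the 7 (51.9%) and lay 1.38 above the median of its class on the log2 scale. Of the other genes of its class, 73.69% were as low as Fos.

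Transcript length moved with the contrast as well. When the same genes were divided into 10 classes by length, the median log2 fold change was -2.06 in the class of the shortest transcripts (109 to 1090 bases), of which 29.68% were called lower, and -0.20 in that of the longest, of which 0.8463% were. No member belongs to the shortest class. Junb (1809 bases) and Ier2 (1522 bases) belong to the third class, with a median of -0.83, in which 5.949% of the other genes were as low as Junb and 7.79% as low as Ier2. No fit was scaled by length.

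**Figure D2:**
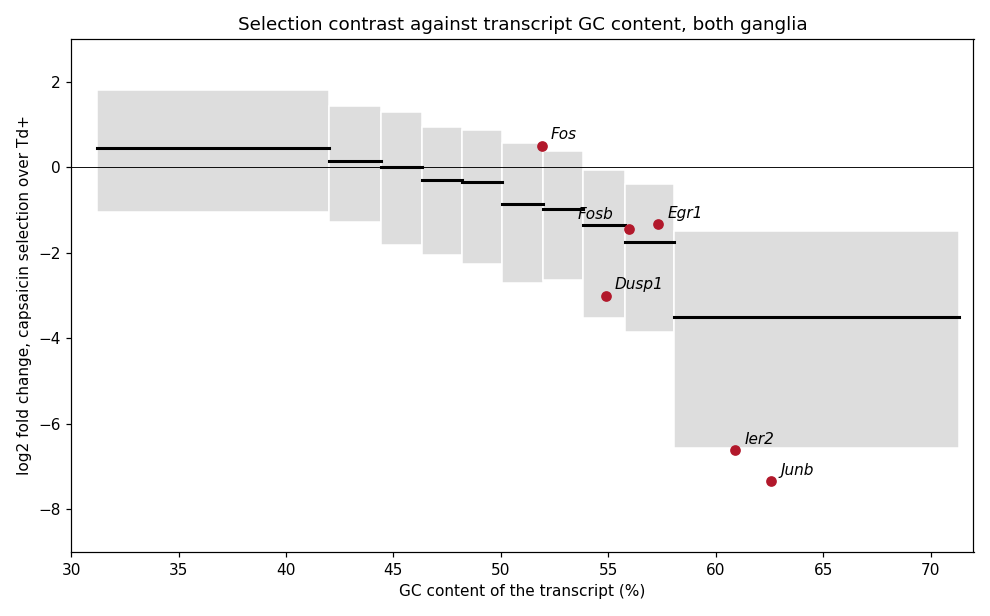
Log2 fold change, capsaicin selection over Trpv1-tdTomato-positive pools of both ganglia, against the GC content of the transcript (%), with grey boxes for the quartiles and black lines for the medians of 10 classes of genes and red points for 6 immediate early genes. The class medians run from 0.46 to -3.50, and the 2 lowest points, Junb and Ier2, lie in the class with the highest GC content, where the lower quartile is -6.56 (Nr4a1, at 0 counts in the stimulated pools, is not drawn).

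The same imbalance was seen pool by pool. Over 3336 genes at 10 CPM in all 6 unstimulated pools, the 354 genes of the highest GC class took 11.69% to 13.16% of the counts in unstimulated pools and 3.211% to 4.498% in stimulated ones. In that class 18.08% of genes had 0 counts in at least 2 stimulated pools, as Junb and Ier2 did, against 0.3497% in the class with the lowest GC content. When each pool was scaled within 20 classes of GC content in the edgeR fit, none of the 7 genes was called. Junb then had a log2 fold change of -3.44 ± 1.61 (SE; 95% confidence interval -6.95 to 0.08; edgeR adjusted p = 0.318). Fos had 1.35 (95% confidence interval -0.53 to 3.22, edgeR adjusted p = 0.503), and the estimates of Fosb and Egr1 turned positive, at 0.47 and 0.72. Those of Ier2 and Dusp1 stayed negative, at -3.29 and -1.36 (edgeR adjusted p = 0.773 and 0.779), and Nr4a1, at 0 counts in the stimulated pools, had an edgeR adjusted p of 0.248. Over all genes this fit called 188 higher and 104 lower.

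Ratios of counts within a pool were also taken. They do not depend on TMM, nor on depth except where a bound was set from 3 counts. The ratio of Fos to Junb was 0.476 and 0.794 in Trpv1-tdTomato-positive nodose, 0.682 and 0.196 in Trpv1-tdTomato-positive jugular and 1.07 and 1.53 in Trpv1-tdTomato-negative nodose pools. In stimulated pools it was at least 2465 and 6.36 in nodose and 34.6 and at least 2217 in jugular pools, with 3 counts set for Junb where it had none. All 4 stimulated values lay above all 6 unstimulated ones. With Fos present in every pool, this largely restates the low Junb levels given above, and the ratio carries the difference in GC content between the genes. Of 6 other ratios taken, Fosb to Junb and Fos to Ier2 were also higher in every stimulated than in every unstimulated pool. Those of Egr1 to Junb, Dusp1 to Junb, Fos to Fosb and Fos to Nr4a1 overlapped. In a stimulated jugular pool Egr1 to Junb was 0.364, within the unstimulated range of 0.105 to 1.33, and in a stimulated nodose pool Dusp1 to Junb was 0.306, within 0.0237 to 1.43.

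**Figure D3:**
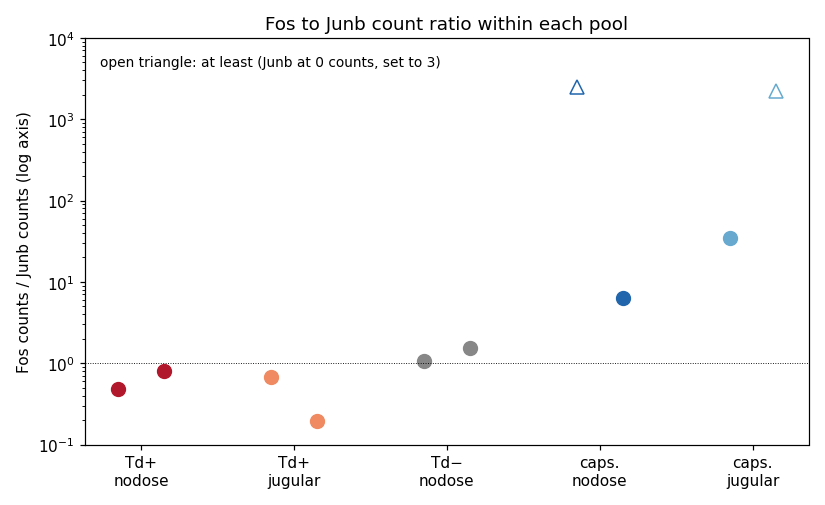
Ratio of Fos counts to Junb counts within each of the 10 pools, on a log axis, by group (Td, Trpv1-tdTomato; caps., capsaicin-selected), with open triangles for lower bounds where Junb had 0 counts. The 6 unstimulated pools lie between 0.196 and 1.53 and the 4 stimulated pools at 6.36 or above.

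In nodose neurons alone, 3.97% of the 11959 genes were called between the selections and none of the 7 immediate early genes was, by edgeR. Both stimulated pools lay below both Trpv1-tdTomato-positive pools for 5 of the 7 (Junb, Egr1, Ier2, Nr4a1 and Dusp1), as for 39.5% of all genes tested. Dusp1 had a log2 fold change of -5.45 ± 1.99 (SE; edgeR adjusted p = 0.222), Junb -6.83 ± 2.65 (adjusted p = 0.24) and Fos -0.02 ± 1.25 (adjusted p = 1). At an unadjusted p under 0.05, 4 of the 7 (Junb, Ier2, Nr4a1 and Dusp1) passed in edgeR, as did 19.2% of all genes tested. DESeq2, which called 14% of genes, called Junb, Ier2 and Nr4a1. Without the second stimulated nodose pool edgeR called Junb (adjusted p = 0.074).

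In jugular neurons 1.97% of genes were called and again none of the 7, of which Junb passed an unadjusted p under 0.05 in edgeR, as did 12% of all genes. The estimates were 1.03 ± 1.26 for Fos, -2.21 ± 2.20 for Fosb, -0.77 ± 2.24 for Egr1, -0.57 ± 1.65 for Dusp1 and -7.85 ± 2.78 for Junb (log2 fold change ± SE; edgeR adjusted p = 0.338 for Junb and 0.765 to 0.964 for the others). With scaling by GC content those of Egr1 and Dusp1 turned positive, at 0.59 and 0.54. Stimulated pools lay below both Trpv1-tdTomato-positive pools for 3 of the 7 (Junb, Ier2 and Nr4a1), as for 34.8% of all genes tested, and Nr4a1 was at or near 0 on both sides. DESeq2, with 9.31% of genes called, called Junb (adjusted p = 0.0198), and edgeR did so when either stimulated nodose pool was left out of the fit (adjusted p = 0.0873 and 0.069).

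**Figure D4:**
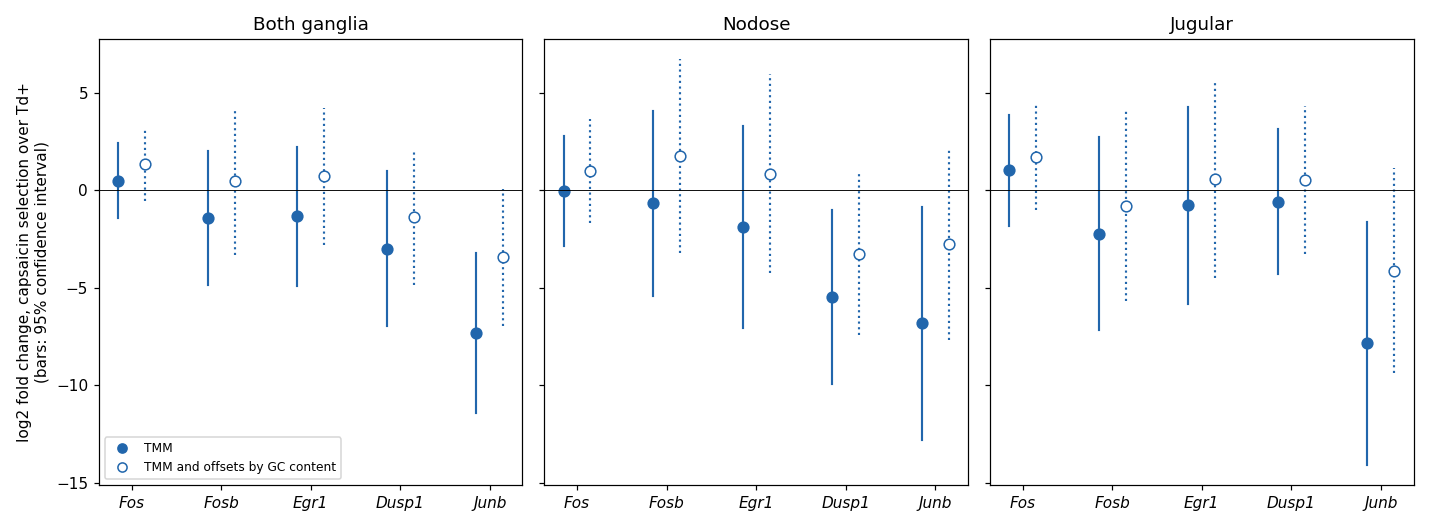
Log2 fold change with its 95% confidence interval, capsaicin selection over Trpv1-tdTomato-positive pools, for 5 immediate early genes in both ganglia, nodose and jugular, from the fit on the TMM scale (filled) and with added scaling by GC content (open). The interval of Junb excludes 0 in all 3 panels on the TMM scale and takes in 0 in all 3 with scaling by GC content, and those of Fos take in 0 throughout.

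Whether the selection contrast differed between ganglia was tested as an interaction. No gene of 11959 (0%) was called by edgeR, 1233 had an unadjusted p under 0.05, and DESeq2 called 1203 (10.1%), among them Ier2 and Nr4a1. Dusp1 had the smallest unadjusted p of the 7, with a log2 difference of 4.88 between the jugular and the nodose contrast (95% confidence interval -0.62 to 10.38, edgeR adjusted p = 0.516). The different Dusp1 levels of stimulated nodose and jugular pools are therefore not shown to be a difference in the selection contrast.

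Between ganglia within a selection, none of the members was called by edgeR. In the Trpv1-tdTomato-positive pools 0.318% of 10990 genes were called between jugular and nodose. Nr4a1 was the member with the largest difference, -10.52 ± 2.42 (log2, jugular over nodose, SE; edgeR adjusted p = 0.321), and DESeq2, with 9.38% of genes called, called it (adjusted p = 2.41e-13). Of 4810 genes at 10 CPM in both of these nodose pools, 1.95% were under 0.1 CPM in both jugular pools. Junb was the most even, -0.18 (95% confidence interval -1.19 to 0.83). In the capsaicin selection edgeR called 0% of 8181 genes, with 1150 at an unadjusted p under 0.05, and DESeq2 called 831 (10.2%), Dusp1 among them. The jugular over nodose log2 fold change of Dusp1 was 5.58, with an interval of -0.02 to 11.17 (edgeR adjusted p = 0.356).

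Within the unstimulated nodose neurons of 1 selection and core, Trpv1-tdTomato-positive pools were compared with Trpv1-tdTomato-negative ones, and 0.0527% of 11386 genes were called by edgeR. The positive pools held more cells each than the negative ones, so cell number goes with this contrast. Junb was higher in both positive pools than in both negative ones, by 1.39 ± 0.52 on the log2 scale (SE; edgeR adjusted p = 0.426), and DESeq2, with 5.71% of genes called, called it (adjusted p = 0.0999). Both positive pools lay below both negative ones for Egr1 and Ier2, with log2 fold changes of -1.85 ± 0.93 and -1.34 ± 1.46 (SE; edgeR adjusted p = 0.604 and 0.9). The estimates of the 4 members with overlapping pools ran from -0.13 for Dusp1 to 1.34 for Nr4a1, with 0.49 for Fos and 0.51 for Fosb between them. Of all genes tested, 21.5% did not overlap in the lower and 19.3% in the higher direction.

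Other genes of the same response were read from lists. Of 37 other rapid response genes 32 were tested over both ganglia, 0 were called higher and 1 lower, and their median log2 fold change was -0.97, against -1.04 for all genes. The gene called was Jund, a Jun-family member expressed without stimulation in many cells, at 181 to 462.4 CPM in unstimulated and 0.0418 to 14.9 CPM in stimulated pools (-6.00 ± 1.37, edgeR adjusted p = 0.0344). Its GC content is 67.15%, and it was not called with scaling by GC content (-2.53, edgeR adjusted p = 0.392). With that scaling 1 gene of the list was called higher, Gadd45g, a stress-response gene (2.91, edgeR adjusted p = 0.0893), which on the TMM scale had -0.79 ± 0.56 and CPM of 73.81 to 147.2 in stimulated against 141.2 to 246.6 in unstimulated pools. Jun itself was at 49.7 to 328.9 CPM in unstimulated pools and at 56.4, 0.0536, 4.26 and 20.8 CPM in stimulated ones (-2.88 ± 1.57, edgeR adjusted p = 0.351). Atf3, a stress-induced factor that pairs with Jun proteins, was at 792.5 and 737.9 CPM in stimulated nodose pools, above the 177.4 to 434.6 CPM of the unstimulated pools, and at 200.8 and 174.2 CPM in stimulated jugular pools. Its contrast in nodose was 0.87 ± 0.52 (log2 ± SE; edgeR adjusted p = 0.346).

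Of 16 late activity-response genes, whose transcripts follow the early factors, 11 were tested and 1 was called, lower. It was Vgf, a secreted neuropeptide precursor, at 45.3 to 176.1 CPM in unstimulated and 1.38 to 8.48 CPM in stimulated pools (-4.95 ± 1.12, edgeR adjusted p = 0.0335). Its GC content is 64.83%, and with scaling by GC content the value was -1.37 (edgeR adjusted p = 0.623). The median of the list was -0.26.

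The relay from calcium to these promoters was represented by 33 genes, 30 tested, with 1 higher and 1 lower. Braf, a kinase at the head of the MAP kinase cascade, was higher after capsaicin at 264.5 to 1115 CPM against 15.3 to 59.1 CPM in Trpv1-tdTomato-positive pools (3.87 ± 0.63, edgeR adjusted p = 0.00561), and it was called with scaling by GC content too (4.11, adjusted p = 0.0459). Mapk3, which encodes ERK1, was lower at 384.6 to 757.4 against 1423 to 1684 CPM (-1.64 ± 0.30, edgeR adjusted p = 0.0108), and with scaling by GC content it turned to 0.38 (adjusted p = 0.698). In nodose, Rps6ka3, an ERK-activated kinase, was called lower too, with 0 counts in both stimulated pools against 116.8 and 92.8 CPM, and it was not called with scaling by GC content (edgeR adjusted p = 0.116). The median of the list was 0.01. None of 10 genes for the decay of short-lived transcripts was called, with a median of -0.17. The most abundant of them, Elavl4 (stimulated 237.4 to 692.6 CPM, Trpv1-tdTomato-positive 184.8 to 277.2 CPM), Hnrnpd and Cnot7, overlapped between the groups.

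Further lists bear on handling of the cells. Dissociation and picking were common to all groups, whereas dye loading, the agonists and imaging were applied to the capsaicin selection alone. Of 15 heat shock and dissociation genes, all tested, 1 was called and it was lower. Mt1, a metallothionein, was at 31.4 to 54.7 CPM in stimulated and 173.9 to 386.1 CPM in unstimulated pools, and it was not called with scaling by GC content (-0.54, edgeR adjusted p = 0.79). In nodose alone the heat shock genes Hspa1b and Dnajb1 were called lower, and neither was with scaling by GC content (edgeR adjusted p = 0.115 and 0.16). With scaling by GC content 1 gene, the constitutive chaperone Hspa8, was called higher over both ganglia (1.57, edgeR adjusted p = 0.0813). Of 10 axon injury genes 7 were tested and 1 was called higher. Sox11, a transcription factor of regenerating sensory neurons, was at 330.6 to 1299 CPM in stimulated and 0.412 to 41.96 CPM in unstimulated pools (6.76 ± 1.25, edgeR adjusted p = 0.0112), and it was called with scaling by GC content as well (7.43, adjusted p = 0.0189). In nodose Flrt3, an adhesion protein, was called higher besides it.

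Markers of neurons and of other cells in the ganglion moved with the selection. Of the 8 sensory neuron markers 2 were called higher over both ganglia (Snap25 and Slc17a6) and 2 lower (Uchl1 and Prph), against 5.85% of all genes called. With scaling by GC content Snap25 and Slc17a6 were called, both higher, and Uchl1 and Prph were not. The 6 satellite glia markers summed to 3276 to 4892 CPM in unstimulated and 222 to 746 CPM in stimulated pools, with Fabp7 and Apoe called lower, and the 4 Schwann cell markers to 232 to 438 and 943 to 1464 CPM, with Pmp22 called higher. Of the 5 macrophage markers the sum was at most 79.76 CPM and of the 4 fibroblast markers at most 254.7 CPM in any pool, and markers of endothelium and red blood cells were at or near 0. Apoe, at 60.9% GC, was not called with scaling by GC content, and Fabp7, at 41.42%, was. The ribosomal RNA row Rn45s took 2.652% to 10.34% of counts in unstimulated and at most 0.1371% in stimulated pools. After all pools were thinned to the lowest total, edgeR called 658 of 11287 genes over both ganglia and 1 of the 7 members, which was lower. The part of glial transcripts, ribosomal RNA and core in the levels of the immediate early genes was not tested. Fewer expressing cells and less RNA per cell cannot be told apart in a pool.

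The genes most like each member over the 10 pools were sought among 7959 genes by the correlation of log2 levels. Junb was most like Smdt1 (r = 0.996), Rabac1 (0.994) and Rpl36a (0.991). Nr4a1 was most like Gpr107 (0.984), Htr3b (0.98) and Hoxb6 (0.969), Fosb most like Timm50 (0.974) and Ier2 most like Brf1 (0.978). For Fos the closest gene was B4galt3, with the lowest first value of the 7, 0.912. Among the members themselves, Egr1 and Ier2 (0.795) and Junb and Ier2 (0.733) were the closest pairs, and Fos correlated with none of the others above 0.201. These values describe 10 pools that share selection, depth and GC imbalance.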

How the data were processed

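The authors' deposited files hold raw read counts per gene symbol, 1 file per pool. Per the labels and the study's methods, cDNA was made with the SMARTer Ultra Low Input kit, which does not mark strand, and sequenced in pairs. Reads were aligned to mm10 with TopHat2 2.0.9 and Bowtie2 2.1.0.0 and counted with HTSeq; its annotation is not given in the sources used here. Groups and replicate numbers came from the labels. Counts were analysed as deposited with edgeR 4.0.16 in R 4.3.3 (filterByExpr, TMM, quasi-likelihood test, Benjamini-Hochberg adjustment over all genes tested), and with DESeq2 1.42.0 as an alternative. The scripts were tested on simulated data. The fits of each ganglion and of the interaction used 8 pools, and those between ganglia or between Trpv1-tdTomato-positive and -negative pools used the 4 pools compared. Other alternatives were DESeq2 size factors, no filter, the replicate number as a block, other sets of pools, thinning to the lowest total, leaving out each pool and, added after the values were seen, offsets by GC content from 1 GENCODE vM21 transcript per gene. Transcript lengths and positions came from the same annotation (GRCm38). The members and lists were chosen with earlier results of these data known. Of each list the genes called were named, up to 4 per direction, and where none was called up to 3 with the highest mean CPM; Jun, Atf3, Gadd45g, Hspa8 and the GC and length values were added after their values were seen. Totals ranged from 17666710 to 167704327 counts. The limits given for counts of 0 cover counting error only, and the intervals of the fold changes rest on the spread between pools.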

Additional observations from a re-analysis of the deposited data

How the results depend on the processing

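Junb was the one member called over both ganglia. DESeq2 called 3 members there, in nodose 3, in jugular 1, in the interaction 2, and 1 in each of the other 3 comparisons. With DESeq2 size factors and with offsets by GC content, 0 members were called over both ganglia, and without the filter on low counts 1 was called in nodose and 1 in jugular. Leaving out 1 pool each gave 0 to 1 members over both ganglia, in nodose and in jugular, and 0 elsewhere. The estimate of Fos in nodose, -0.02, turned to 0.61 with DESeq2 and its size factors, 0.094 without the filter, 0.33 after thinning, 0.24 in the fit of the 4 pools compared and 1.01 with GC offsets, and that of Fosb there to 0.12 with DESeq2 and its size factors and 1.75 with GC offsets. The jugular over nodose value of Fos in the capsaicin selection turned to -0.023 in the fit of all 10 pools and -0.17 with GC offsets. GC offsets, chosen after seeing the data, also turned Fosb to 0.47 and Egr1 to 0.72 over both ganglia, Egr1 to 0.85 in nodose, Egr1 to 0.59, Ier2 to 0.21 and Dusp1 to 0.54 in jugular, and Egr1 in the interaction to -0.26.

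Leaving out 1 pool each moved Fos from -0.12 to 0.98 over both ganglia, from -2.46 to 0.84 in nodose and from -0.45 to 2.24 in jugular, Fosb in nodose from -1.06 to 0.20 and Egr1 in jugular from -6.36 to 0.089. In the interaction it moved Fos from -0.55 to 3.59, Junb from -10.82 to 9.74, Egr1 from -4.55 to 3.45 and Ier2 from -1.51 to 11.75. Between ganglia it moved Fosb from -1.91 to 0.30, Junb from -0.38 to 0.068 and Dusp1 from -0.21 to 4.45 in Trpv1-tdTomato-positive pools, and Fos from -1.38 to 2.75, Junb from -8.66 to 7.43 and Egr1 from -3.66 to 4.32 in the capsaicin selection. Between Trpv1-tdTomato-positive and -negative pools it moved Fos from -0.21 to 0.97, Fosb from -0.184 to 1.004, Nr4a1 from -0.21 to 2.20 and Dusp1 from -3.83 to 0.83.

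Counts of genes called moved most with DESeq2, to 2269, 1677 and 1113 over both ganglia, in nodose and in jugular. With GC offsets they were 292, 223 and 30, and without the filter 771 in nodose, 461 in jugular, 95 in the interaction, 59 and 122 between ganglia and 10 between Trpv1-tdTomato-positive and -negative pools. With DESeq2 size factors 120 genes were called in jugular. The fit of the 4 pools compared called 56 in nodose and 363 in jugular, the fit of all 10 pools 110 between ganglia after capsaicin, and thinning 1 in the interaction. Leaving out 1 pool each gave 415 to 742, 107 to 1006 and 41 to 513 genes in the selection contrasts, 0 to 195 in the interaction, 0 to 29 between ganglia after capsaicin and 0 in the other 2 comparisons.

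Samples with the same replicate number did not deviate together (r from -0.0134 to 0.000691), so no pairing by number was seen. The mouse that gave each pool is not given, so pairing by animal could not be tested. With the replicate number as a block, Junb kept its call over both ganglia (edgeR adjusted p = 0.083), 565 genes were called there, 334 in nodose and 172 in jugular, 13 and 20 between ganglia and 1 between Trpv1-tdTomato-positive and -negative pools. In all, 262 of the values under other settings and 266 with 1 pool left out kept their direction and their side of the threshold. Direction was reversed in 18 and 28 values, and the others crossed the threshold. Where 1 pool was left alone in a group, it was assumed to vary like the others. The cause of these changes was not tested. The depth of the stimulated pools limits what can be seen below about 0.17 CPM.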
